A study of Homo sapiens with 2 samples.

Results

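The Sprouty genes SPRY1, SPRY2 and SPRY4 and the SPRED genes SPRED1, SPRED2 and SPRED3, which encode inhibitors of Ras and ERK signalling, were followed in sorted J82 cells, with 1 array for each of 2 cell fractions. The members were chosen by name, and a gene's value was the mean of the probe sets whose annotation gives its symbol alone. Of the 6 genes, 5 were measured, each by 1 probe set, out of 14232 genes named in this way. SPRED3 is named by no probe set in the annotation used and was not analysed here. J82, an established line from a human bladder cancer, was grown in serum-containing medium with no treatment named in the labels. Cells were stained with the DNA dye Hoechst and sorted into a side population (SP), which keeps little of the dye, and a non-side population (NSP), which keeps it. Both fractions come from the same line and differ by the sort alone as far as the labels state. Neither fraction has a replicate. The differences below therefore carry no error and no p-value, and they describe only this pair of arrays. In RNA from sorted bulk cells, fewer cells with a transcript and less transcript per cell cannot be told apart.

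Sprouty and SPRED proteins act as brakes on signals from receptor tyrosine kinases. A growth factor receptor recruits the adaptor GRB2 and the exchange factor SOS, which load Ras with GTP, and Ras then drives the kinases RAF, MEK and ERK. Sprouty proteins are induced by ERK activity itself and interfere with the pathway around GRB2, Ras and RAF, so that they close a negative feedback loop. SPRED proteins share the cysteine-rich C-terminal domain of the Sproutys, carry an EVH1 domain at the other end, and bring the Ras GTPase-activating protein neurofibromin (NF1) to the membrane.

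The promoters of SPRY2, SPRY4 and SPRED2 are printed because SPRED2 and SPRY2 had the largest differences of the family and because SPRY2 and SPRY4 held a motif of the immediate early factor EGR1, which differed strongly between the arrays. Each run is the RefSeq sequence of build GRCh38.p14 from 250 bases before the annotated start site to 50 bases from it on, 5′ to 3′ on the gene's strand. The windows of SPRY4 and of SPRED3, the latter not printed, lie wholly inside the annotated span of the gene. Their start site is therefore not the outermost one. Capitals mark the motifs found. The SPRY2 window is chr13:80341077-80341376, minus strand, the SPRY4 window chr5:142324198-142324497, minus strand, and the SPRED2 window chr2:65432550-65432849, minus strand.
SPRY2: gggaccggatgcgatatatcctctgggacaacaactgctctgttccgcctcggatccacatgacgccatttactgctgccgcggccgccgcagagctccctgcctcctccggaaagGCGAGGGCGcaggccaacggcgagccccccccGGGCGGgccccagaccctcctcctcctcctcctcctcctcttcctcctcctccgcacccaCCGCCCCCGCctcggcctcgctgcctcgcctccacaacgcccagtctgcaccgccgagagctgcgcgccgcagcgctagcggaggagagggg
SPRY4: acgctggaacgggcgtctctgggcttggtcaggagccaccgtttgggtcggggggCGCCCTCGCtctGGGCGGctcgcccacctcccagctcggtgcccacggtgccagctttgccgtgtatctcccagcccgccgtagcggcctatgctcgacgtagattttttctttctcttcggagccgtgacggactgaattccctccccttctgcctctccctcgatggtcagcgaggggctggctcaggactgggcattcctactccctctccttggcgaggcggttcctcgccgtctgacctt
SPRED2: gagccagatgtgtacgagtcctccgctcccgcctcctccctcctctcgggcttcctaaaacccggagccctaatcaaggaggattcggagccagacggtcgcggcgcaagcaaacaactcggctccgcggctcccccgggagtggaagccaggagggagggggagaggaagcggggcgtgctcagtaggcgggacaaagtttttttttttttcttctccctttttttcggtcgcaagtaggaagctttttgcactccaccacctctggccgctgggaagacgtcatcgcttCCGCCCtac

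The motifs searched on both strands were the EGR site GCGNGGGCG, the GC box GGGCGG of SP1-type factors, the ETS core CCGGAAG, the AP-1 site TGANTCA, the cAMP response element TGACGTCA and the capicua octamers TGAATGAA, TGAATGGA, TCAATGAA and TCAATGGA. The SPRY2 window held 2 EGR matches, at -134 to -126 and, on the other strand, at -41 to -33, counted from the start site. The second shares bases with a GC box at -42 to -37, and SPRY2 held another GC box at -102 to -97. SPRY4 held 1 EGR match on the other strand at -195 to -187 and a GC box at -183 to -178. SPRED2 and SPRED1 held a GC box each and no EGR match. SPRY1 held none of these motifs. SPRED3, whose transcript was not measured, held an AP-1 site and a capicua octamer. The EGR site was thus in 2 of 6 member promoters, against 9.28% of 27305 promoters of the same length, and the GC box in 4 of 6, against 44.6%. No member had the ETS core (10.7% of all promoters) or the cAMP response element (1.98%), and 1 of 6 had the AP-1 site (7.76%) or a capicua octamer (3.86%). The SPRY2 promoter was 71.0% G and C, SPRY4 65.0% and SPRED1 76.3%, against a median of 58.3%, while SPRY1 was at 47.7%. The EGR site and the GC box are themselves rich in G and C. The shares over all promoters were not matched for G and C, so they allow no reading of the member counts. A match describes the letters of the window and not binding of a factor.

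The family differed little between SP and NSP. All 5 measured members had a slightly higher value in SP, by 0.04 to 0.23 on the log2 scale, and none reached 1.5-fold. The level used as a floor was the median of all values, 7.44 (log2 signal), and 4 of the 5 members lay above it on both arrays. Among 7549 genes whose higher value reached the floor, 3.1% were higher in SP by 1.5-fold or more and 1.43% were lower by that margin, so that 0 of 4 members past that fold is close to the background share. Any difference above 0 was seen in 40.1% of those genes, against 4 of 4 members at or above the floor. The median difference of these genes was -0.05, against 0.09 for the 4 members. Over all 14232 genes it was 0.00, against 0.09 for the 5 members.

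**Figure D1:**
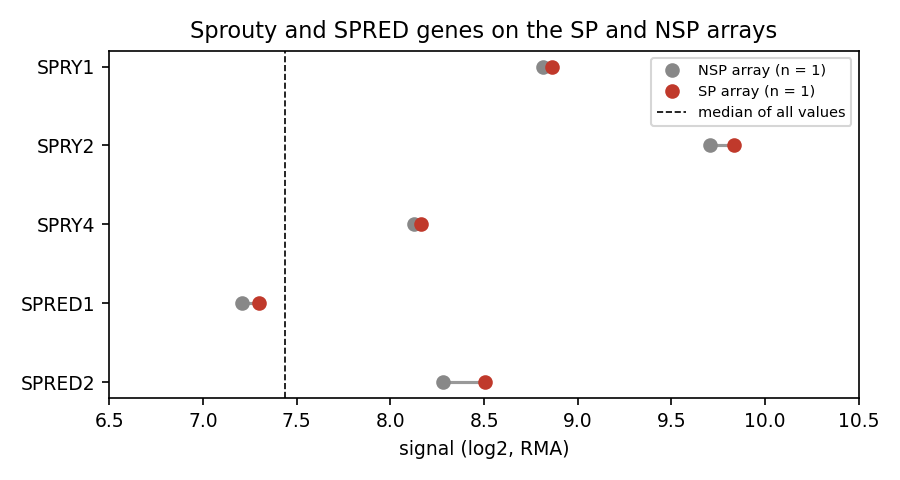
Signal (log2, RMA) of the 5 measured Sprouty and SPRED genes on the NSP array (grey) and the SP array (red), 1 array each, with the median of all values as a dashed line. The SP point lies to the right of the NSP point in each gene, by at most 0.23, and SPRED1 alone lies left of the line.

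SPRY2, the family member studied most as an ERK-induced inhibitor and a binder of the ubiquitin ligase CBL, had a log2 signal of 9.84 in SP and 9.71 in NSP. It was thus 1.09-fold higher in SP, a difference of 0.13. Of 1394 genes within 0.5 log2 of its mean signal, 60.0% differed as far in either direction, and 19.7% were as high or higher in SP. Genes of that signal had a median difference of -0.09. SPRY2 thus sat in the upper part of the genes of its signal level, but most of these genes differed as far.

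SPRY1, an inhibitor known from kidney development where it restrains RET signalling, had a log2 signal of 8.86 in SP and 8.82 in NSP. The difference of 0.05 corresponds to 1.03-fold, and 84.9% of the 2476 genes of like signal differed as far or further. SPRY4, which restrains Ras activation downstream of FGF and VEGF receptors, had 8.16 in SP and 8.13 in NSP. Its difference of 0.04 (1.03-fold) was the smallest of the family, and 85.3% of 2960 genes of like signal differed as far. For SPRY1 and SPRY4, most genes of their signal level differed more between the arrays than they did.

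SPRED2, an EVH1-domain inhibitor that acts on the step from Ras to RAF, had the largest difference. Its log2 signal was 8.51 in SP and 8.28 in NSP, which is 0.23 or 1.17-fold higher in SP. Of 7549 genes at or above the floor 1013 had a higher difference, or 13.4%. Of 2878 genes of like signal, 35.6% differed as far in either direction. SPRED1, the gene mutated in Legius syndrome and the partner of NF1, was dim, at 7.30 in SP and 7.21 in NSP, with both values under the floor. Its difference of 0.09 (1.06-fold) was matched or passed by 63.6% of 3003 genes of like signal. RMA in general compresses differences of dim probe sets.

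**Figure D2:**
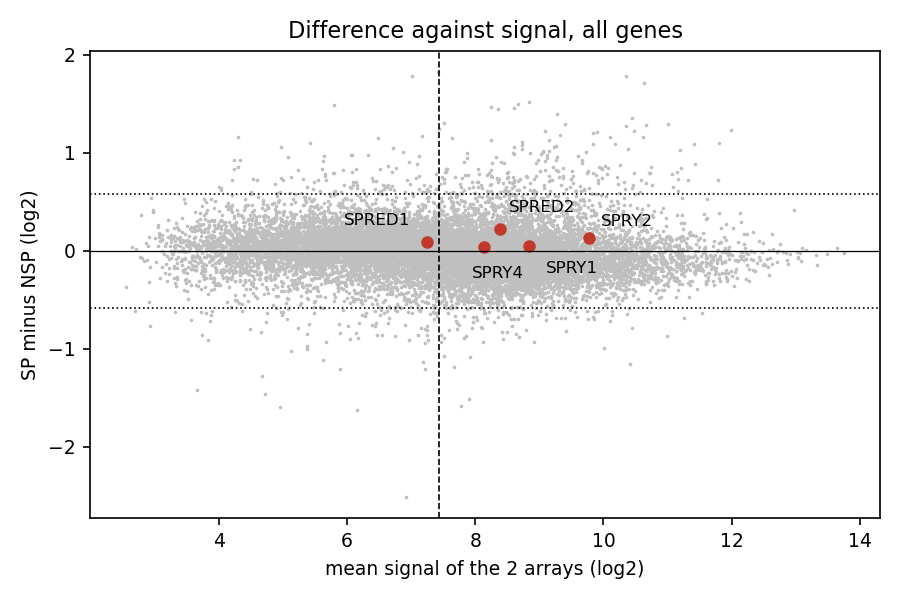
Difference SP minus NSP (log2) against the mean signal of the 2 arrays (log2) for 14232 genes (grey), with the 5 measured members in red; dotted lines mark 1.5-fold and the dashed line the median of all values. All members lie above 0 and inside the dotted lines, with SPRED2 highest at 0.23.

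The 3 Sprouty genes had a median difference of 0.05 and the 2 measured SPRED genes one of 0.16. With 1 array per fraction the difference between the subfamilies could not be tested. Other genes of EVH1-domain proteins, which link signals to actin or to receptors at synapses, also had small differences. Of 10 measured, SPRED1 and SPRED2 included, 8 were higher and 2 lower, with a list median of 0.09. None of the 7 at or above the floor was past 1.5-fold, near the shares of 3.1% and 1.43% over all such genes. WASL, an activator of actin branching, was 1.19-fold higher (8.94 in SP, 8.69 in NSP), EVL 1.09-fold higher and VASP 1.07-fold lower.

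Of 12 partners listed, 7 were measured, of which 3 were higher and 4 lower in SP (median difference -0.09). Of the 7, 5 differed by no more than SPRED2 did, and DYRK1A and GRB2 by more. DYRK1A, a kinase that binds and phosphorylates SPRY2, was 1.90-fold higher (9.72 in SP, 8.80 in NSP). NF1, the effector that SPRED1 and SPRED2 recruit, was 1.07-fold lower (9.37 against 9.47). CBL, which marks SPRY2 for degradation, was 1.04-fold higher (8.66 against 8.60), and SIAH2, another ubiquitin ligase for Sprouty proteins, was 1.09-fold higher (8.89 against 8.75). The adaptor gene GRB2 was 1.18-fold lower (9.29 against 9.53), HRAS 1.06-fold lower and CAV1, the caveolar protein that Sproutys bind, 1.10-fold lower. The other partners were not analysed here.

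The wider list of partners and regulators held 18 measured genes, 7 higher and 11 lower, with a median of -0.08. Of the 16 that reached the floor, 2 exceeded 1.5-fold, both higher in SP, against 3.1% higher over all such genes. Besides DYRK1A the other was CBLB, a relative of CBL, at 1.64-fold (9.02 against 8.31). MKNK2, of the kinase family that phosphorylates SPRY2, was 1.26-fold lower, and LZTR1, an adaptor for degradation of Ras proteins, 1.25-fold lower.

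Among the other genes listed as feedback inhibitors, several phosphatase genes were higher in SP by more than 1.5-fold and others differed little. Not all the listed phosphatases act mainly on ERK, as given below for DUSP10. Of 19 measured, 16 were higher in SP and 3 lower, with a median of 0.30. Over all 14232 genes, 7007 were higher and 7046 lower. Without the DUSP genes and genes that also stand in another list, the median was 0.14, against 0.09 for the 5 Sprouty and SPRED genes. In all, 6 of the 15 that reached the floor exceeded 1.5-fold, all 6 higher in SP, against 3.1% higher and 1.43% lower over all such genes. The phosphatase gene DUSP1 had 12.60 in SP and 11.37 in NSP, which is 2.34-fold higher in SP. DUSP5, which acts on ERK in the nucleus, was 2.33-fold higher (11.09 against 9.87). DUSP10, which acts on JNK and p38, was 1.93-fold higher, and ERRFI1, an inhibitor of the EGF receptor, 1.60-fold. DUSP4 (7.54 against 6.94) was 1.52-fold higher. DUSP6, the cytoplasmic ERK phosphatase, was 1.55-fold higher between dim signals (6.98 against 6.35), neither of which reached the floor. DUSP4 and DUSP6 were named after their values were seen, as ERK targets commonly read together with SPRY2 and SPRY4. Against these, 7 of the 19 genes differed by no more than SPRED2, the largest of the family, among them DUSP2 (0.18), CBL (0.06), DUSP9 (0.03), LRIG1 (-0.01) and PEBP1 (-0.10), which were also named after their values were seen. The difference between these inhibitors and the Sprouty and SPRED genes was not tested.

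Output genes of ERK outside feedback were mostly higher in SP. Of 25 measured, 19 were higher and 6 lower, against 7007 higher and 7046 lower over all 14232 genes. The list median was 0.23, or 0.42 over the 19 at or above the floor. Of the 19 that reached the floor, 8 exceeded 1.5-fold, all 8 higher in SP, against 3.1% higher over all such genes. The immediate early transcription factor EGR1, whose motif stood in the SPRY2 and SPRY4 windows printed above, was 3.27-fold higher (11.49 in SP, 9.78 in NSP). UPP1, an enzyme of uridine breakdown, was 2.08-fold higher, MYC 1.80-fold and IER3 1.79-fold. The PEA3 group of transcription factors, which respond to FGF and ERK signals, had lower values in SP, by small margins for ETV5 and ETV4. ETV5 had 9.26 in SP and 9.34 in NSP, a difference of -0.08, near the median of -0.05 over all genes at or above the floor. Under the floor ETV4 had 7.10 and 7.15 (-0.04) and ETV1 6.61 and 6.88 (-0.27), against a median of 0.00 over all 14232 genes. CCND1, the cyclin D1 gene, had 9.83 and 10.05. ETV1, ETV4, ETV5 and CCND1 were named after their values were seen.

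The ETS and capicua factors had a median of -0.0025 over 12 measured genes, 6 higher and 6 lower. Of the 9 that reached the floor, 2 exceeded 1.5-fold, both higher in SP, against 3.1% higher over all such genes. The 2 were ETS2 at 1.81-fold (10.36 against 9.51) and ETS1 at 1.53-fold (9.48 against 8.86). ELK3 was 1.14-fold higher, and CIC, the capicua repressor released by ERK, was 1.10-fold lower (8.29 against 8.43).

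**Figure D3:**
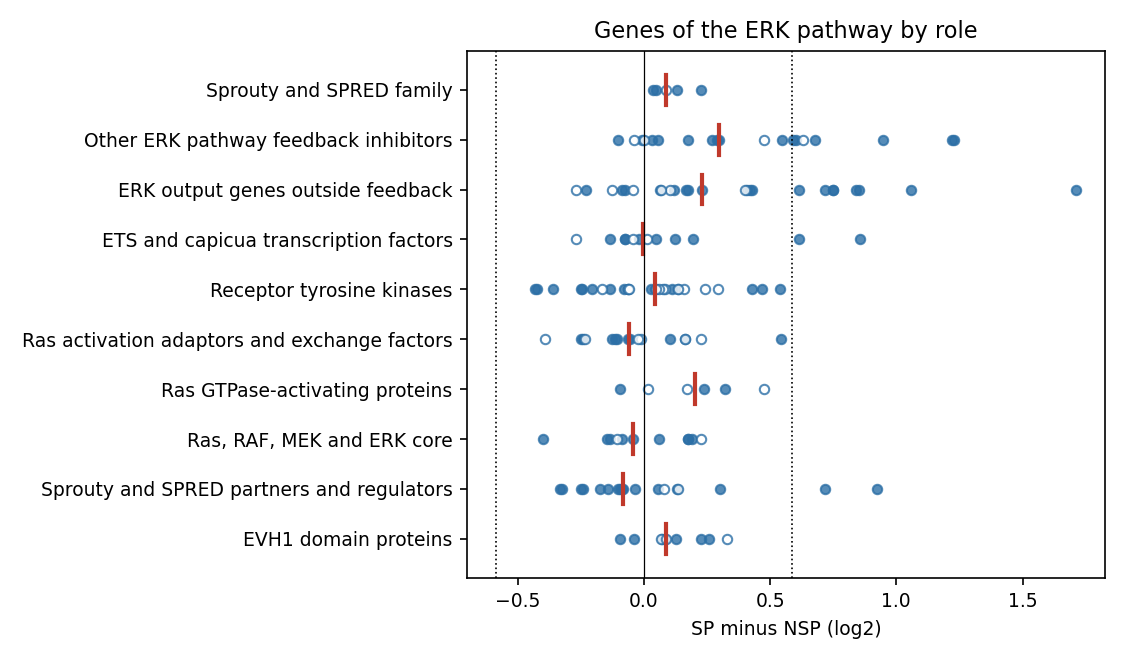
Difference SP minus NSP (log2) of each measured gene by role, as filled points for genes at or above the median of all values and open points for genes under it; red bars are list medians and dotted lines mark 1.5-fold. The 5 Sprouty and SPRED points lie between 0.04 and 0.23, whereas other feedback inhibitors reach 1.23 and ERK output genes 1.71.

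The 4 lists from the receptors to the Ras, RAF, MEK and ERK core held 37 genes at or above the floor, NF1 included. Of these, 0 reached 1.5-fold, which is near the shares of 3.1% and 1.43% over all such genes. The receptor tyrosine kinases had a median of 0.05 over 27 genes, 15 higher and 12 lower, but of -0.08 over the 15 that reached the floor. The list held PDGFRB at 1.45-fold higher, ROR1 at 1.38-fold higher, EPHA2 at 1.35-fold higher and the FGF receptor gene FGFR1 at 1.35-fold lower (8.15 against 8.58). The adaptors and exchange factors had a median of -0.06 over 16 genes, with GAB2 1.46-fold higher, PTPN11 1.19-fold lower and SOS2 1.12-fold higher. The Ras GTPase-activating genes had a median of 0.20 over 6 genes, 5 higher and NF1 lower, with RASAL2 1.25-fold and RASA3 1.18-fold higher. The Ras, RAF, MEK and ERK core had a median of -0.04 over 11 measured genes of 19, which turned to 0.01 after centring on the median difference, with RRAS 1.32-fold lower and RRAS2 1.14-fold, RPS6KA3 1.13-fold and SHOC2 1.13-fold higher.

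The genes next to the members on their chromosomes, in RefSeq order among measured genes, had differences of both signs. Their distance from the member ran from 312 bases (GGN to SPRED3) to 3536078 bases (SLITRK1 to SPRY2), so a neighbour here need not lie close. SPRY2 lay between NDFIP2, at -0.42 (log2, SP minus NSP), and SLITRK1, at 0.55 but under the floor on both arrays. SPRY4 lay between NDFIP1, at 0.06, and the growth factor gene FGF1, at -0.60 with 6.82 in SP and 7.42 in NSP, both under the floor. The neighbours of SPRED2 were RAB1A (-0.12) and MEIS1 (-0.23), those of SPRY1 were AFG2A (-0.14) and ANKRD50 (0.21), and those of SPRED1 were TMCO5A (0.07) and FAM98B (-0.09). SPRED3, not measured itself, lay between GGN (0.05) and FAM98C (-0.19).

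The 22011 probe sets ran from 2.11 to 13.99 (log2 signal), with medians of 7.43 in SP and 7.44 in NSP. The dye transporter gene ABCB1 was 1.62-fold higher in SP (9.87 against 9.17), and ABCG2 was 1.37-fold higher between signals that did not reach the floor. Of 15 measured urothelial markers 6 reached the floor, KRT8 brightest at 13.18 in SP and 12.77 in NSP, while the uroplakin genes UPK1A, UPK1B, UPK2 and UPK3A, GATA3 and EPCAM lay under it. Immune (2 of 8 at or above the floor), endothelial (1 of 7) and erythroid markers (0 of 2) were mostly dim. Among the immune markers PTPRC stood at 3.74 in SP and 3.80 in NSP, but CD68 at 9.35 and 9.66 and CD14 at 7.73 and 7.64. Of 7 fibroblast markers 4 reached the floor, among them LUM at 10.74 and 11.13.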

How the data were processed

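Total RNA of each sorted fraction was amplified by a whole-transcript protocol, labelled with biotin and run on a human exon array, per the labels' protocols. The authors deposited log2 values, made with RMA and Partek per the submitters' processing notes. Not given in the sources used here are versions, the probe set definition, the genome build and filters. Of 22011 probe sets, 14432 carried 1 gene symbol, 2408 several and 5171 none. Symbols were updated through Entrez identifiers in RefSeq GRCh38.p14 (14404 matched). Probe intensities were not used here, so detection above background was not computed. Single-symbol probe sets were averaged per gene, and SP minus NSP was taken, with folds as 2 to the power of its size. Like signal means a mean within 0.5 log2. No test was run, since each fraction has 1 array, and the number of arrays limits the precision.

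The members and lists were chosen with earlier results of these data known. Named were all members, up to 4 genes per list with the largest absolute difference at or above the floor, 12 partners, ABCG2 and ABCB1, and the nearest measured chromosomal neighbours. Nearest genes by value were to be named for members past 1.5-fold, of which there were 0. The promoter motifs were chosen with the EGR1 value known. A few other genes, among them marker genes, were named after their values were seen. Alternatives were median centring, removal of a lowess trend (span 0.3), quantile normalisation, other probe set rules, floors, folds and list summaries. The calculations were tested on simulated data. Python 3.11.15, numpy 2.4.6, pandas 2.3.3, statsmodels 0.14.6 and matplotlib 3.10.9 were used.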

Additional observations from a re-analysis of the deposited data

How the results depend on the processing

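All 25 member values under centring, trend removal, quantile normalisation, the brightest probe set and added several-symbol probe sets were above 0, between 0.04 and 0.28, and within 0.1 of the values above. Each measured member has 1 probe set, so the last 2 alternatives change nothing for them. Centring subtracted a median of -0.05 from every difference, so it could only raise the member values. The count of members past 1.5-fold was 0 in each direction under every alternative, also with no floor, with both values at the floor and at 2-fold. The Sprouty and SPRED medians moved by less than 0.1. Of 81 list values under alternatives, 8 moved by 0.1 or more. With the mean over members the partner list gave 0.027, the other feedback inhibitors 0.42, the ERK output genes 0.36 and the ETS list 0.10. Over members at or above the floor the receptor median was -0.078 and that of the ERK output genes 0.42. Without shared, Sprouty, SPRED and DUSP genes the other feedback inhibitors gave 0.14 and the ERK output genes 0.40. Signs turned in 14 of the 81 values, in 4 lists with medians near 0. These were the partners (the mean above), the receptors (also -0.015 without shared genes), the Ras, RAF, MEK and ERK core (0.011 centred, 0.034 with the trend removed, 0.0082 without its largest member or shared genes) and the ETS list (-0.0025 in the report, alternatives 0.013 to 0.10). No paired analysis was possible because each fraction has 1 array. A difference of 0.04 to 0.23 in 1 array each cannot be set against any spread between samples, and SPRED1 is limited further by its signal under the floor.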
